A study of Mus musculus with 18 samples.

Results

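Srgap3, Ptpn13 and Megf10 were examined in mandibular bone, Meckel's cartilage (MC) and mandibular condylar cartilage of mouse embryos with and without the S252W change in 1 copy of Fgfr2. The 3 genes were taken by symbol from the 38243 Ensembl genes counted in each library. They were chosen by their counts in bone, which were higher in the mutant embryos, so the difference between genotypes in bone is described here without a test. The levels in MC and in condylar cartilage were not used in the choice and were tested between genotypes. Differences between tissues, averaged over the genotypes, were tested as well. Those that hold bone are another contrast but draw on the same bone libraries as the choice, so they are also given for the WT embryos alone, whose bone libraries the choice used too.

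The study asked which genes change in the developing mandible of a mouse model of Apert syndrome, a craniosynostosis syndrome caused by substitutions in the receptor FGFR2. Tissues were cut from cryosections by laser capture microdissection from 3 female Fgfr2+/S252W embryos (labelled Apert, genotype Fgfr2S252W) and 3 female Fgfr2+/+ littermates (labelled WT) of the C57BL/6 strain at E16.5. Neither group received a treatment. Each embryo gave 1 library of each of the 3 tissues, so that 18 libraries fell into 6 groups of 3. Libraries of 1 genotype with equal replicate numbers were taken as 1 embryo, as their labels imply. The embryos were not pooled, a Cre or a tissue-specific promoter is not given in the sources used here, and a library holds RNA of every cell type in the captured area, amplified before sequencing.

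Srgap3 encodes a GTPase-activating protein of the srGAP family, which bind the intracellular tail of Robo receptors for Slit ligands, lower the activity of small GTPases such as Rac and bend membranes through an F-BAR domain. Ptpn13 encodes a large intracellular protein tyrosine phosphatase with a FERM domain and several PDZ domains, through which it binds proteins such as Fas and ephrin-B ligands. Megf10 encodes a transmembrane receptor with many EGF-like repeats, known for engulfment of apoptotic cells and of synapses by astrocytes and for its function in muscle satellite cells. In bone tissue, osteoblasts lay down matrix and osteoclasts, which arise from the macrophage lineage, resorb it.

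On GRCm38, the assembly of the files, Srgap3 (ENSMUSG00000030257) lies on the minus strand of chromosome 6 from 112717971 to 112947266 and has 8918 exonic bases. Ptpn13 (ENSMUSG00000034573) lies on the plus strand of chromosome 5 from 103425192 to 103598359, with 8280 exonic bases.

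Promoter sequences from RefSeq (GRCm38.p6) were found for 2 of the 3 genes. The 250 bases before the annotated start are printed to show how the promoters of these genes differ in base composition and motifs. They are chr6:112947267-112947516 on the minus strand for Srgap3 and chr5:103424942-103425191 on the plus strand for Ptpn13, 5′ to 3′ in the direction of transcription, and no exon of GENCODE vM21 overlaps either. Capitals mark matches to the motifs searched.
Srgap3: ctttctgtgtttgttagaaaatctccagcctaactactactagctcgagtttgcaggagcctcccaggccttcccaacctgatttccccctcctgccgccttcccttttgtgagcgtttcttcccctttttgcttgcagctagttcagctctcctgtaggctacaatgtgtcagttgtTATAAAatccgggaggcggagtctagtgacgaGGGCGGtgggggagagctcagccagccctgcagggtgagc
Ptpn13: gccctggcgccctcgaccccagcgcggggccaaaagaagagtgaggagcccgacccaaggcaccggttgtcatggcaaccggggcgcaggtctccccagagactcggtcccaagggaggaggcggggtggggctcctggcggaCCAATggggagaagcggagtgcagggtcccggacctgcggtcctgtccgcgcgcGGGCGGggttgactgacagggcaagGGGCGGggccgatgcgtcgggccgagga
Both strands were searched. The motifs were TGTGGT for the RUNX core, CCGGAA for ETS factors, GGGCGG for the SP1 box, TATAAA for the TATA box and CCAAT for the CCAAT box. The AP-1 motif was searched as TGANTCA. The CRE motif was searched as TGACGTCA. The Srgap3 window held TATAAA from 72 to 67 bases before the start and GGGCGG from 40 to 35 bases before it. The Ptpn13 window held CCAAT from 107 to 103 bases before the start and GGGCGG from 53 to 48 and from 28 to 23 bases before it. No match overlapped another. Of the 32851 promoters of the same length, 32.7% held GGGCGG, 33.8% CCAAT and 12.4% TATAAA. The letters of the other motifs, present in 6.75% (AP-1), 14.05% (RUNX core), 12.03% (ETS) and 1.55% (CRE) of all promoters, were in neither window. The content of G and C was 54.0% for Srgap3 and 72.4% for Ptpn13, and 43.5% and 6.03% of all promoters had a higher one. The CpG dinucleotide occurred 7 times in the Srgap3 window and 24 times in the Ptpn13 window.

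Megf10 (ENSMUSG00000024593) lies on the plus strand of chromosome 18 from 57133090 to 57297467 on GRCm38, with 7718 exonic bases. No other gene of the files' annotation lies within the span of any of the 3 genes, so that fragments, which were counted without regard to strand, were not shared with an overlapping or antisense gene.

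Each library held between 8218548 and 15585778 counts on genes. Mitochondrial genes took between 19.4% and 38.1% of them, with 36.0% and 34.8% in WT bone replicates 1 and 2 and between 20.4% and 23.6% in the other bone libraries. In MC, Gm42418 alone made up 24.1% to 39.4% of each library, in condylar cartilage 10.9% to 20.2%, and in bone 5.58% to 6.49% in S252W and 8.57% to 9.33% in WT. Total counts in bone were 12823262 to 15585778 in S252W and 10966635 to 12623521 in WT, so that neither measure overlapped between genotypes there. The labels were checked against lists of marker genes, each summed as normalized counts (CPM scaled by TMM factors). Osteoblast markers (11 genes) summed to between 17694 and 35762 in bone and to between 1674 and 4292 in MC, where the osteoblast gene Bglap had no count. Chondrocyte markers (9 genes) summed to between 34137 and 44464 in condylar cartilage, to between 227 and 596 in bone and to between 418 and 9499 in MC. WT MC replicate 1 gave the 418, within the range of bone. In it Col2a1, the main cartilage collagen, was at 209 normalized counts, within the 37.2 to 308 of bone and below the 1498 to 6894 of the other MC libraries. Matn1, a cartilage matrix protein, was at 0.274 in it, against 0 to 0.146 in bone and 3.87 to 58.1 in the other MC libraries, and Acan, the proteoglycan aggrecan, at 96.3, against 0.212 to 6.71 and 169 to 867. In condylar cartilage, osteoblast markers were highest in replicate 3 of each genotype, with 20370.1 in S252W and 13047 in WT, against 5337 to 6474 in the other 4 libraries. The members' fold changes, ratios of summed counts and family shares that rest on WT MC replicate 1 or S252W condylar cartilage replicate 3 are given with and without it, for untested values by a choice made after seeing the data. Fgfr2 itself had 218 ± 12.2 normalized counts (SD, n = 3) in mutant bone and 222 ± 44.7 (SD, n = 3) in WT bone, and counts per gene do not separate its alleles.

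**Figure D1:**
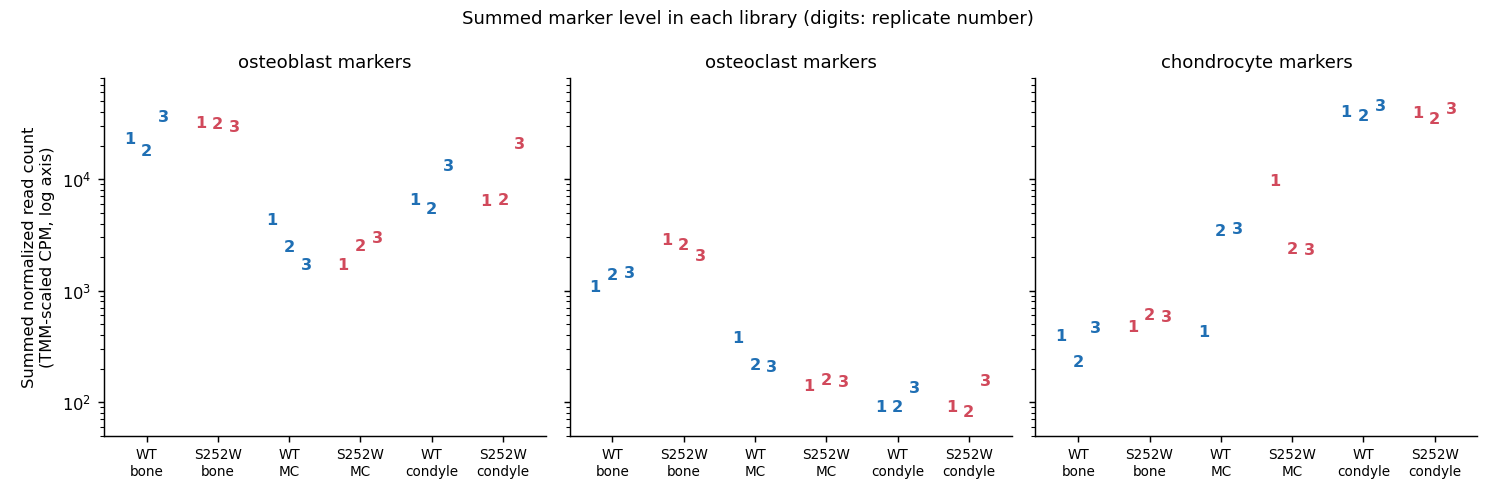
Summed normalized read count (TMM-scaled CPM, log axis) of the osteoblast, osteoclast and chondrocyte markers in each of the 18 libraries by group, with WT in blue, S252W in red, and digits for the replicate number. WT MC replicate 1 lies at 418 for chondrocyte markers, below the other MC libraries, and the 3 S252W bone libraries lie between 2015 and 2794 for osteoclast markers, above the 3 WT bone libraries at 1068 to 1413.

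In mandibular bone, Srgap3 had 92.5, 83.3 and 72.0 normalized counts in S252W replicates 1 to 3, and 32.0, 33.0 and 34.9 in WT replicates 1 to 3. All 3 mutant libraries lay above all 3 WT libraries. The log2 fold change of Srgap3 was 1.30 (SE 0.26), ranking 112 from the highest among the 14881 genes tested.

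Ptpn13 had 85.8, 98.5 and 89.2 normalized counts in the S252W bone libraries and 37.4, 40.7 and 44.5 in the WT bone libraries, again without overlap. Its log2 fold change was 1.16 (SE 0.20), with a rank of 183. Megf10 had 65.7, 63.9 and 62.2 normalized counts in the S252W bone libraries and 32.8, 35.7 and 30.9 in the WT bone libraries. The groups did not overlap, and the log2 fold change of Megf10 was 0.95 (SE 0.18), with a rank of 309. Among all genes tested, all 3 S252W bone libraries lay above all 3 WT bone libraries in 10.5% and the groups did not overlap in 20.2%, and 0.141% passed an adjusted p of 0.05 in bone, 0.0941% higher and 0.047% lower in S252W. Since this contrast chose the 3 genes, nothing is read from these shares.

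The 3 genes differed little between replicates of a genotype in bone. The SD was 10.3 around a mean of 82.6 for Srgap3, 6.57 around 91.2 for Ptpn13 and 1.76 around 63.9 for Megf10 in S252W bone, and 1.48 around 33.3, 3.53 around 40.9 and 2.44 around 33.1 in WT bone (n = 3 each). Raw counts behind these levels were 1358 to 1865 in S252W and 452 to 623 in WT bone for Srgap3, 1674 to 2206 and 557 to 793 for Ptpn13, and 1173 to 1431 and 489 to 551 for Megf10. The log2 fold changes stayed between 1.22 and 1.40 for Srgap3, between 1.10 and 1.23 for Ptpn13 and between 0.90 and 1.01 for Megf10 under each alternative fit that kept them, leaving out single libraries included. Depth and the share of Gm42418 also separated the genotypes in bone, as given above, and without mitochondrial genes and Gm42418 the values were 1.29, 1.15 and 0.94. The part of depth in them was not tested. A share of cells of a type and the amount of RNA per cell cannot be told apart in libraries of whole captured tissue.

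**Figure D2:**
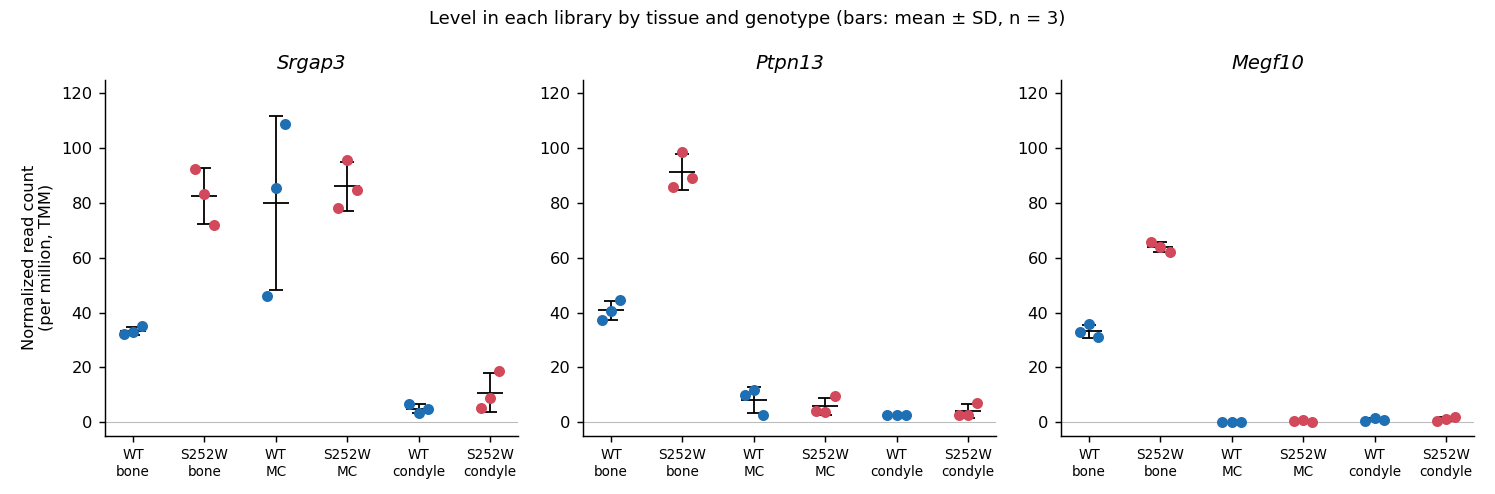
Normalized read counts (TMM-scaled CPM) of Srgap3, Ptpn13 and Megf10 in each of the 18 libraries, by tissue and genotype (WT blue, S252W red, condyle for condylar cartilage), with bars for the mean ± SD of 3 libraries. In bone the S252W libraries lie above the WT libraries for each gene, and Megf10 lies at or below 1.80 in both cartilages.

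Markers of other cells moved with genotype in bone as well. Of the 11 osteoclast markers, 2 rose in S252W bone past the threshold, Calcr, the calcitonin receptor, at a log2 difference of 1.41 (SE 0.24, adjusted p = 0.0199 with limma), and Oscar, an osteoclast-associated receptor, at 1.24 (SE 0.20, adjusted p = 0.0199). Of all genes tested, 0.0941% passed as higher in S252W bone. Neither the Calcr nor the Oscar call held with edgeR (adjusted p = 0.745 and 0.577), and with DESeq2 Oscar alone passed (0.0244, Calcr 0.0936). With 1 bone or MC library left out at a time, a choice made after seeing the data, each of the calls was lost in 4 of 12 cases, among them S252W bone replicate 1 (0.151 for both) and WT bone replicates 1 (0.205 for Calcr and 0.242 for Oscar) and 2 (0.106 for both). All 11 had positive fold changes and an unadjusted p below 0.05, which 8.23% of all genes had, with a median of 1.04 against -0.00145 over all genes tested. Their summed level was 2794, 2565 and 2015 normalized counts in S252W bone replicates 1 to 3 and 1068, 1378 and 1413 in WT bone replicates 1 to 3, without overlap. In bone, none of the osteoclast markers was at 0 in all libraries of a genotype.

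Of the 8 macrophage markers, Cd68, a lysosomal protein of macrophages that osteoclasts also make, rose, with 0.98 (SE 0.20, adjusted p = 0.0490 with limma). Lyz2, the lysozyme of macrophages and other myeloid cells, fell by 1.46 on the log2 scale (SE 0.28, adjusted p = 0.0377). Of all genes tested, 0.0941% passed as higher and 0.047% as lower. The Cd68 and Lyz2 calls were both lost with edgeR (adjusted p = 0.639 for Cd68 and 0.799 for Lyz2), with DESeq2 (0.28 and 0.44) and with any of several libraries left out, 8 of 12 for Cd68 (up to 0.476) and 7 of 12 for Lyz2 (up to 0.307). The macrophage markers summed to 221 to 282 in S252W and 159 to 192 in WT bone, while 3 of their 8 fold changes were positive, their median was -1.40 and all 8 had an unadjusted p below 0.05. Of the 11 skeletal muscle markers, 10 were tested and none passed, with 8 at an unadjusted p below 0.05, and their sum was 1.08 to 25.8 in S252W and 22.6 to 202 in WT bone. Osteoblast markers (0 of 11 passed, 2 at an unadjusted p below 0.05) overlapped between genotypes, at 29083 to 31347 in S252W and 17694 to 35762 in WT bone. Endothelial markers (0 of 6 passed, none at an unadjusted p below 0.05) also overlapped, and nerve and glia markers summed to at most 7.30 in bone. Chondrocyte markers summed to 463 to 596 in S252W and 227 to 461 in WT bone, without overlap, and 0 of 9 passed, with 7 positive fold changes and 1 at an unadjusted p below 0.05. The part of these cell types in the levels of Srgap3, Ptpn13 and Megf10 was not tested.

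In MC, the levels of Srgap3 overlapped between genotypes. Srgap3 had 78.0, 95.6 and 84.6 normalized counts in S252W MC replicates 1 to 3 and 46.0, 85.5 and 108.7 in WT MC replicates 1 to 3. The WT libraries held both the lowest and the highest value. The log2 fold change was 0.24 (SE 0.28, 95% interval -0.34 to 0.82), with a limma adjusted p of 0.730. Without WT MC replicate 1, the library low in chondrocyte markers, it was -0.17 (adjusted p = 0.846). With each MC library left out in turn it ranged from -0.17 to 0.50. The effect in bone exceeded that in MC by 1.06 (SE 0.38) for Srgap3, and by 1.49 (SE 0.33) without WT MC replicate 1, differences given without a test because they hold the bone contrast.

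Ptpn13 was low in MC, with 4.09, 3.67 and 9.36 normalized counts in the S252W libraries and 9.79, 11.6 and 2.70 in the WT libraries, from raw counts of 15 to 107. The values overlapped, with the lowest in WT replicate 3 and the 2 highest in the other WT libraries. The log2 fold change was -0.47 (SE 0.50, 95% interval -1.51 to 0.58, limma adjusted p = 0.704), and it was -0.09 without WT MC replicate 1 (adjusted p = 0.976). It was -0.87 without S252W MC replicate 3 (adjusted p = 0.538) and -0.99 without WT MC replicate 3 (adjusted p = 0.216), the lowest of the values with 1 MC library left out. Megf10 was at or near 0 in MC, with raw counts of 3, 3 and 0 in the S252W libraries and 2, 0 and 0 in the WT libraries. No fold is given for it, since each library was at or under 3 counts. No gene of the 14881 passed the threshold in MC (0%) with limma, with 2200 genes (14.8%) at an unadjusted p below 0.05, against 61 genes past the threshold with edgeR's quasi-likelihood test and 443 with DESeq2.

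Marker sums of macrophages, osteoclasts and nerve and glia did not overlap between genotypes in MC. The summed level of macrophage markers was 75.2 to 123 in S252W and 39.8 to 57.9 in WT MC, without overlap, and 6 of the 8 had an unadjusted p below 0.05 and none passed. Osteoclast markers went the other way, at 137 to 156 in S252W and 205 to 371 in WT MC, again without overlap, and none of the 11 passed, with 6 at an unadjusted p below 0.05. Over all genes the groups did not overlap in 12.5% in MC, and S252W was the higher in 6.48%. Calcr, which is a defining marker among them, had no count in any WT MC library. Nerve and glia markers summed to 9.71 to 19.7 in S252W and 4.98 to 6.66 in WT MC, and 0 of the 6 tested passed, with 3 at an unadjusted p below 0.05. Chondrocyte markers summed to 2288 to 9499 in S252W and 418 to 3505 in WT MC, and 0 of 9 passed, with 8 positive fold changes and 5 at an unadjusted p below 0.05. The part of these cells in the MC levels was not tested.

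In condylar cartilage all 3 genes were low and none passed. Srgap3 had 5.07, 8.65 and 18.5 normalized counts in S252W condylar cartilage replicates 1 to 3 and 6.61, 3.21 and 4.68 in the WT libraries. S252W replicate 3 stood above all others, and the S252W value of replicate 1 lay below the highest WT value. The log2 fold change was 0.86 (SE 0.49, 95% interval -0.17 to 1.88), with an unadjusted p of 0.0958 and a limma adjusted p of 0.999. Without S252W replicate 3, the library with the highest osteoblast marker sum in this tissue, it was 0.47 (adjusted p = 0.9999). Without S252W replicate 1 it was 1.36 (unadjusted p = 0.0115, adjusted p = 0.979 with limma), the other end of the range with 1 condylar cartilage library left out. It was 1.12 with edgeR's quasi-likelihood test (unadjusted p = 0.00817, adjusted p = 1) and 1.15 with DESeq2 (unadjusted p = 0.00314, adjusted p = 0.452).

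Ptpn13 had 2.64, 2.53 and 6.95 normalized counts in the S252W condylar cartilage libraries, and 2.43, 2.53 and 2.66 in the WT libraries. S252W replicate 3 was again the highest, and the other 5 libraries lay between 2.43 and 2.66. Its log2 fold change was 0.38 (SE 0.52, 95% interval -0.71 to 1.47, limma adjusted p = 0.999), and with 1 library left out it ranged from 0.04, without S252W replicate 3, to 0.61, without S252W replicate 1. Megf10 had 0.486, 1.22 and 1.80 normalized counts in the S252W libraries and 0.228, 1.35 and 0.826 in the WT libraries, from 3 to 16 raw counts. Its groups overlapped, with a log2 fold change at 0.57 (SE 0.70, 95% interval -0.90 to 2.03, limma adjusted p = 0.999). It was 0.24 without S252W replicate 3, and the values with 1 library left out ranged from -0.15, without WT replicate 1, to 1.16, without S252W replicate 1.

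No gene passed in condylar cartilage (0%) with limma, with 501 (3.37%) at an unadjusted p below 0.05, against 0 with edgeR and 3 with DESeq2. Groups did not overlap in 9.37% of genes in this tissue, with S252W the higher in 4.39%. The biological coefficient of variation was 0.182 in bone, 0.299 in condylar cartilage and 0.460 in MC. Osteoclast markers summed to 81.1 to 152 in S252W and 89.9 to 132 in WT condylar cartilage, and macrophage markers to 5.97 to 15.6 and 8.95 to 15.8. The effect of genotype was then compared between the cartilages, without the embryo as a block. It was higher in condylar cartilage than in MC by 0.62 for Srgap3 (SE 0.56, 95% interval -0.56 to 1.79, limma adjusted p = 0.757) and by 0.85 for Ptpn13 (SE 0.73, 95% interval -0.66 to 2.36, adjusted p = 0.740), and neither difference passed. Without WT MC replicate 1 they were 1.03 and 0.48, and without S252W condylar cartilage replicate 3 they were 0.23 and 0.51, and none of these passed. With 1 library left out they ranged from 0.23 to 1.12 for Srgap3, the highest without S252W condylar cartilage replicate 1, and from 0.48 to 1.38 for Ptpn13, the highest without WT MC replicate 3. No gene passed this comparison (0%), with 1374 (9.23%) at an unadjusted p below 0.05, against 0 with edgeR and 119 with DESeq2. The effect in bone exceeded that in condylar cartilage by 0.44 (SE 0.55) for Srgap3, by 0.78 (SE 0.56) for Ptpn13 and by 0.39 (SE 0.73) for Megf10, given without a test. Without S252W condylar cartilage replicate 3 these were 0.86 (SE 0.54), 1.15 (SE 0.60) and 0.74 (SE 0.80).

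**Figure D3:**
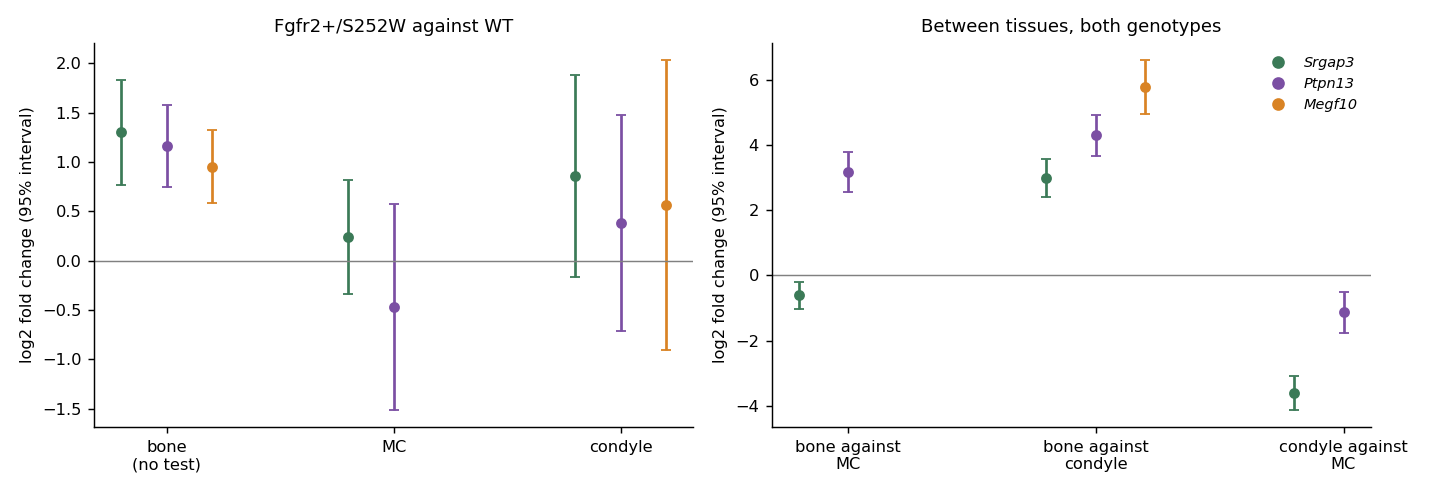
Log2 fold changes of Srgap3, Ptpn13 and Megf10 with 95% intervals from limma, between genotypes in each tissue on the left and between tissues over both genotypes on the right. The values in bone on the left are a description without a test. Megf10 is not drawn where MC, with 0 to 3 counts a library, enters, and the intervals of both cartilages on the left hold 0.

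The tissues were compared within embryos, as the mean of both genotypes with the embryo as a block. Megf10 was highest in bone. Its bone level of 30.9 to 65.7 normalized counts lay above every cartilage library, of which the highest held 1.80. From summed counts, bone held 254 times the level of MC (95% interval 129 to 590, from 8 counts in MC) and 55.7 times that of condylar cartilage (43.4 to 72.6), intervals that cover counting error only. In the fit, the log2 fold change between bone and condylar cartilage was 5.78 (SE 0.39, limma adjusted p = 2.65e-09), and the comparison with MC had an adjusted p of 3.89e-08, and of 4.16e-08 without WT MC replicate 1. In each of the 6 embryos bone was at least 26.5 times the condylar cartilage. In the WT embryos alone the log2 fold change between bone and condylar cartilage was 5.57 (adjusted p = 1.60e-06), and the comparison with MC had an adjusted p of 1.30e-05. Of the level summed over the tissue means, 97.6% was in bone, 97.6% also without WT MC replicate 1 and 97.9% without S252W condylar cartilage replicate 3. Without WT MC replicate 1 the ratio of bone to MC was 247 (114 to 674), and without S252W condylar cartilage replicate 3 that of bone to condylar cartilage was 63.6 (48.0 to 86.1).

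Between the cartilages, Megf10 was higher in condylar cartilage, by 4.57 times from summed counts (95% interval 2.18 to 11.05) and with a limma adjusted p of 0.00329. In the fit to all tissues, the order of its levels was therefore bone, condylar cartilage and MC, with each step past the threshold. Only 63 counts in condylar cartilage and 8 in MC stand behind the lower step. The ratio was 4.44 (1.93 to 12.6) without WT MC replicate 1 and 4.002 (1.88 to 9.79) without S252W condylar cartilage replicate 3. With the 12 cartilage libraries fitted alone, the lower step did not pass (limma adjusted p = 0.0530). In the fit to all tissues, the adjusted p without WT MC replicate 1 was 0.00273, and without S252W condylar cartilage replicate 3 it was 0.00891.

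Ptpn13 had the same highest tissue, with MC next. Bone libraries held 37.4 to 98.5 normalized counts, MC libraries 2.70 to 11.6 and condylar cartilage libraries 2.43 to 6.95. Bone lay above all cartilage libraries, and the cartilages overlapped. The log2 fold change was 3.17 between bone and MC (SE 0.29, limma adjusted p = 2.02e-07) and 4.30 between bone and condylar cartilage (SE 0.30, adjusted p = 3.67e-09). In the WT embryos alone the first of these was 2.37 (adjusted p = 0.000268) and the second 3.99 (adjusted p = 2.98e-06). Condylar cartilage was lower than MC by -1.13 on the log2 scale (SE 0.30, adjusted p = 0.00343). Without WT MC replicate 1 the log2 fold changes of Ptpn13 were 3.40 for bone against MC (adjusted p = 2.23e-07) and -0.89 for condylar cartilage against MC (adjusted p = 0.0261), and without S252W condylar cartilage replicate 3 the latter was -1.30 (adjusted p = 0.00231). In all 6 embryos MC was above condylar cartilage, by 1.01 to 4.59 times. Bone held 86.7% of the summed tissue means, 87.3% without WT MC replicate 1 and 87.5% without S252W condylar cartilage replicate 3.

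Srgap3 followed another order, with condylar cartilage lowest and the levels of MC and bone overlapping. It was at 46.0 to 108.7 normalized counts in MC, 32.0 to 92.5 in bone and 3.21 to 18.5 in condylar cartilage. Condylar cartilage lay below every library of the other tissues, with log2 fold changes of -3.60 against MC (SE 0.25, limma adjusted p = 2.44e-09) and 2.99 for bone against condylar cartilage (SE 0.28, adjusted p = 1.28e-07). Bone was lower than MC by -0.61 (SE 0.19, adjusted p = 0.0146). That last step did not hold throughout, since its adjusted p was 0.0512 with edgeR's quasi-likelihood test. It rose above the threshold when S252W MC replicate 2 (-0.53, adjusted p = 0.0613), S252W bone replicate 3 (-0.47, 0.0766), WT MC replicate 2 (-0.50, 0.0642), WT bone replicate 3 (-0.50, 0.0699) or WT MC replicate 3 (-0.44, 0.104) was left out. Without WT MC replicate 1 it was -0.77 (adjusted p = 0.00218). Condylar cartilage against MC was -3.74 without that library and -3.80 without S252W condylar cartilage replicate 3.

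Within embryos, the ratio of Srgap3 in bone to MC was 0.321, 0.386 and 0.696 in WT embryos and 0.851, 0.871 and 1.19 in S252W embryos. The genotypes did not overlap, and this is a description because it holds the bone contrast that chose Srgap3. Nothing is read from the separation. Over all genes, levels did not overlap in 20.2% in bone and 12.5% in MC, and the share for ratios was not computed. In the WT embryos alone the log2 fold change of Srgap3 was -1.16 between bone and MC (limma adjusted p = 0.00565) and 2.81 between bone and condylar cartilage (adjusted p = 8.56e-05). Among all genes tested, 48.1% passed between bone and MC (24.5% higher and 23.6% lower in bone), 48.8% between bone and condylar cartilage (25.5% and 23.3%) and 57.6% between the cartilages (28% higher and 29.6% lower in condylar cartilage), so that passing in a tissue comparison did not set the 3 genes apart. Without S252W condylar cartilage replicate 3, the log2 fold change between bone and condylar cartilage was 3.24 for Srgap3, 4.53 for Ptpn13 and 5.93 for Megf10. The tissues differ in their cells, since osteoclast markers summed to 1068 to 2794 in bone, 137 to 371 in MC and 81.1 to 152 in condylar cartilage. Chondrocyte markers summed to 34137 to 44464 in condylar cartilage, 418 to 9499 in MC and 227 to 596 in bone. The part of these cells in the tissue differences was not tested.

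Levels of different genes were compared per length, as FPKM, within the family of each member. In the srGAP family, Srgap3 made up 31.1% ± 3.73 (SD, n = 3) of the summed FPKM of Srgap1, Srgap2, Srgap3 and Arhgap4 in S252W bone and 19.4% ± 3.74 in WT bone. It was 38.1% ± 5.66 and 30.7% ± 6.06 in MC, and 3.52% ± 2.03 and 1.97% ± 0.651 in condylar cartilage. Without WT MC replicate 1 the WT share in MC was 33.9%, and without S252W condylar cartilage replicate 3 the S252W share there was 2.39%. The other members filled the family differently. Srgap1 was highest in condylar cartilage, at 20.1 FPKM in S252W and 16.5 in WT, and its log2 fold change was -1.04 for bone against condylar cartilage (SE 0.15, limma adjusted p = 1.49e-05) and 1.57 for condylar cartilage against MC (SE 0.16, adjusted p = 3.02e-07), the opposite order to Srgap3. Srgap2 lay between 8.24 and 12.1 mean FPKM in all 6 groups, and Arhgap4 at or below 0.290. None of Srgap1, Srgap2 and Arhgap4 passed between genotypes in bone, where their log2 fold changes were 0.45 (SE 0.23), 0.29 (SE 0.16) and 0.54 (SE 0.44), nor in either cartilage. At an unadjusted p below 0.05 with limma there was 1, the low Arhgap4 in condylar cartilage at -1.99, where 3.37% of all genes had such a p.

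**Figure D4:**
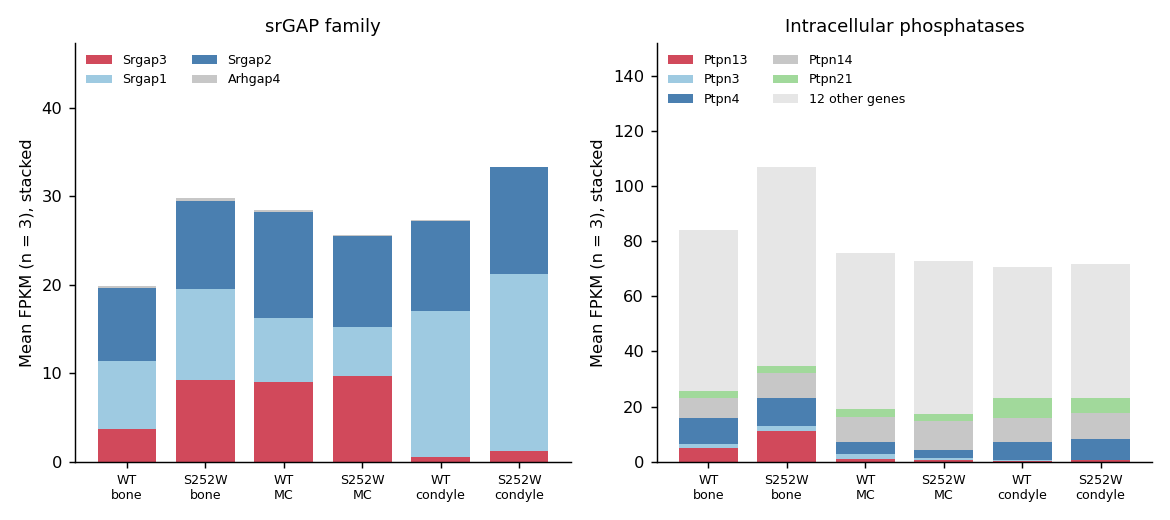
Mean FPKM (n = 3), stacked by gene, in the srGAP family and in 17 intracellular tyrosine phosphatases for the 6 groups, with condyle for condylar cartilage. The red part at the base is Srgap3 or Ptpn13, and Srgap3 is 31.1% of its family in S252W bone and 19.4% in WT bone.

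Among 17 intracellular protein tyrosine phosphatases, Ptpn13 had 11.01 FPKM in S252W bone and 4.93 in WT bone, or 10.3% ± 0.621 and 5.87% ± 0.0396 of the sum (SD, n = 3). In MC its share was 0.977% and 1.30% (1.07% without WT replicate 1), and in condylar cartilage 0.675% (0.439% without S252W replicate 3) and 0.434%. Of the phosphatases with a FERM domain, Ptpn4 was at 10.02 FPKM in S252W and 9.49 in WT bone, and was higher in bone than in MC (log2 fold change 1.39, SE 0.19, limma adjusted p = 1.43e-05). Ptpn3 was low everywhere, between 0.113 and 1.96 mean FPKM, with bone above condylar cartilage by 3.50 (SE 0.53, adjusted p = 3.09e-05). Ptpn14 lay between 7.38 and 10.4 mean FPKM in all groups and passed in no tissue comparison, and Ptpn21 was highest in condylar cartilage, at 5.44 and 7.42 FPKM. Of the 16 phosphatases other than Ptpn13, 14 were tested between genotypes in bone and 0 passed, against 0.141% of all genes. Of these 14, 4 had an unadjusted p below 0.05, as did 8.23% of all genes.

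Of the MEGF family, Megf10 was compared with Megf6, Megf9, Megf11 and Pear1. In bone Megf10 was the most abundant of these genes, with a mean of 8.28 FPKM in S252W and 4.29 in WT. In condylar cartilage the highest of them was Megf9, at 9.12 FPKM in S252W and 6.77 in WT, and it was lower in bone by -1.88 (SE 0.18, adjusted p = 1.37e-07 with limma). Pear1, also called Megf12, a receptor of platelets and endothelium, was at 5.47 and 4.999 FPKM in MC, and lower in condylar cartilage than in MC by -5.19 (SE 0.39, adjusted p = 5.96e-09) and in bone than in MC by -2.03 (SE 0.22, adjusted p = 1.34e-06). Megf6 (-1.40, adjusted p = 0.000138) and Megf11 (-1.16, adjusted p = 0.0150) were also lower in bone than in MC. Megf9 did not pass between bone and MC (-0.35, adjusted p = 0.202). Between genotypes in bone, the log2 fold changes were -0.39 (SE 0.37) for Pear1, -0.25 (SE 0.26) for Megf9, -0.59 (SE 0.33) for Megf6 and 0.12 (SE 0.54) for Megf11, and none of these passed or had an unadjusted p below 0.05.

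The known partners of the 3 proteins were examined next. Between genotypes in bone, limma called 0 of 14 tested genes among Slit ligands, Robo receptors and small GTPases with their effectors (2 at an unadjusted p below 0.05, median log2 fold change 0.09), 0 of 21 PTPN13 partners and substrates (2 at an unadjusted p below 0.05, median 0.07) and 0 of 26 genes of apoptotic cell engulfment (5 at an unadjusted p below 0.05, median 0.15). Of all genes tested, 0.141% passed in bone, 8.23% had an unadjusted p below 0.05, and the median was -0.00145. At that first share, lists of 14 to 26 genes would rarely hold a call, so 0 does not show that the partners were unchanged. Over all gene lists used here, markers included, 4 genes passed in bone with limma, 0 with edgeR's quasi-likelihood test and 1 with DESeq2, and 13 passed when the 6 bone libraries were fitted alone. In MC and in condylar cartilage none of the genes of these 3 lists passed.

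Between tissues, the counts of partners that passed are read against the shares over all genes, which were 24.5% higher and 23.6% lower in bone than in MC and 25.5% higher and 23.3% lower in bone than in condylar cartilage. Of the 14 genes of the Slit and Robo list, 8 were higher and 1 was lower in bone than in MC, and 7 were higher and 2 lower in bone than in condylar cartilage. The ligands and receptors are named here after their values were seen. The ligand Slit2 was higher in bone than in MC by 0.87 (SE 0.17, limma adjusted p = 0.000442) and than in condylar cartilage by 4.20 (SE 0.24, adjusted p = 3.33e-10), and Slit3 by 1.35 (SE 0.29, adjusted p = 0.00115) and 2.89 (SE 0.32, adjusted p = 8.72e-07). The receptor Robo1 had the order of Srgap3, with -0.77 between bone and MC (SE 0.14, adjusted p = 0.000244) and 0.74 between bone and condylar cartilage (SE 0.15, adjusted p = 0.000384). Robo2 was at -0.05 between bone and MC (adjusted p = 0.868) and at 1.53 between bone and condylar cartilage (adjusted p = 2.23e-05).

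Of the 21 PTPN13 partners, 4 were higher and 8 lower in bone than in MC, and 7 higher and 5 lower than in condylar cartilage. Fas, the death receptor that PTPN13 binds, was not called between bone and MC (0.18, SE 0.52, limma adjusted p = 0.799) or between bone and condylar cartilage (1.27, SE 0.54, adjusted p = 0.0600). Of the 26 engulfment genes, 6 were higher and 6 lower in bone than in MC, and 14 higher and 4 lower than in condylar cartilage. Over all genes, 24.5% were higher and 23.6% lower in bone than in MC, and 25.5% and 23.3% than in condylar cartilage. Against MC the engulfment genes were close to these shares. Gulp1, an engulfment adaptor that binds MEGF10, was lower in bone than in MC by -0.62 (SE 0.20, adjusted p = 0.0167) and higher than in condylar cartilage by 2.07 (SE 0.27, adjusted p = 6.93e-06), so that it was not lowest in MC as Megf10 was. Fas and Gulp1 were also named after their values were seen.

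Genes with the most similar profile were ranked by Pearson's r of log2 values over the 18 libraries, which share embryos, tissues and depth. For Srgap3 these were Zfp36l2 (0.964), Igfbp5 (0.964), Adamts5 (0.963), Tut4 (0.962) and Tshz1 (0.961), of which Igfbp5, an IGF-binding protein, was at 2455 ± 435 normalized counts in S252W MC, 1558 ± 109 in S252W bone and 185 ± 76.6 in S252W condylar cartilage (SD, n = 3). For Ptpn13 they were Serpinf1 (0.978), Mpp1 (0.973), Csf1 (0.966), Ctsk (0.960) and Bmp3 (0.958). Ctsk, the matrix protease of osteoclasts, was at 696 ± 104 in S252W and 415 ± 48.4 in WT bone, and Csf1, a growth factor that osteoclast precursors need, at 98.6 ± 14.8 and 67.9 ± 10.9, without overlap, while Serpinf1, Mpp1 and Bmp3 overlapped between the genotypes. For Megf10 they were Pcolce (0.964), Akr1c18 (0.962), Cst3 (0.961), Tmem132d (0.959) and Bglap (0.955). Bglap, which encodes osteocalcin, was at 19.2 ± 6.38 in S252W and 8.37 ± 3.36 in WT bone, though its near-identical copies leave its counts uncertain, and Akr1c18 was at 13.9 ± 1.54 and 5.82 ± 1.85. The genotypes did not overlap for these last 2. Over all genes 20.2% did not overlap in bone, and nothing is read from these counts, since the genes were ranked by likeness to members chosen as higher in S252W bone. They did overlap for the other 3, with Pcolce at 491 ± 32.6 in S252W and 385 ± 116 in WT bone, Cst3 at 92.8 ± 9.72 and 88.6 ± 5.65, and Tmem132d at 13.5 ± 2.94 and 9.79 ± 5.12.

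By Spearman's rho, 1 of each 5 remained among the 5, and over the 6 bone libraries 0 of each 5. Between the members, Pearson's r over the 18 libraries was 0.840 for Ptpn13 and Megf10, 0.528 for Srgap3 and Ptpn13 and 0.143 for Srgap3 and Megf10.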

How the data were processed

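The deposited values are counts of fragments per gene. From amplified RNA the authors obtained paired-end reads, mapped them to mm10 with STAR and counted with featureCounts v1.5.0-p1 without regard to strand on Ensembl genes of GRCm38, with replicates kept apart. Amplification and the composition of the captured area can both move a count, and intervals from counts cover counting error only. Groups came from the labels, 3 embryos for each of the 6 groups.

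In R 4.3.3, genes were filtered with filterByExpr of edgeR 4.0.16, which kept 14881 and all 3 members. The filter of the study, above 1 FPKM in 50% of libraries, kept only Srgap3 when FPKM were taken on the total counts without TMM factors. On the TMM-scaled FPKM printed in the report, Ptpn13 was above 1 in 9 of 18 libraries and would be kept. TMM factors, voom, lmFit and eBayes of limma 3.58.1 followed, with 1 mean per group for genotype (12 residual and 8.36 prior degrees of freedom) and the embryo as a block for tissues (8 and 9.28). Adjusted p-values are limma's, two-sided, by the Benjamini-Hochberg method over all genes of a comparison, with a threshold of 0.05, unless edgeR or DESeq2 1.42.0 is named. Log2 values for profiles used a prior count of 2. FPKM were computed from the exonic length in the files. The procedure was tested on simulated counts.

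The 3 members and the gene lists were chosen with earlier results of these data known. Named genes were the members, their families, the FERM phosphatases, list genes that passed between genotypes (at most 4 per list and tissue), the 5 most similar genes per member and Fgfr2. Slit2, Slit3, Robo1, Robo2, Fas, Gulp1 and the genes behind the check of the tissue labels (Col2a1, Matn1, Acan, Gm42418) were named after their values were seen. A gene of these families is not reported here.

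That a replicate number stands for 1 embryo across tissues comes from the labels. Deviations from group means of the same embryo correlated at 0.018 (bone and MC), -0.024 (bone and condylar cartilage) and 0.0020 (condylar cartilage and MC) on average. For genotype, p-values and intervals rest on the residual spread between embryos, pooled over the tissues. The biological coefficient of variation was 0.182 in bone, 0.299 in condylar cartilage and 0.460 in MC. Counts of genes at an unadjusted p below 0.05 with limma changed when each tissue was fitted alone. They went from 2200 to 923 in MC, from 1224 to 2237 in bone and from 501 to 452 in condylar cartilage. Tissue p-values, with the embryo as a block, measure the spread left within embryos. Alternatives were filters, normalization, tools, weights, leaving out libraries, blocks and fewer libraries.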

Additional observations from a re-analysis of the deposited data

Results flagged for a closer look

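Lyz2 was the only one of the 4 list genes called in bone whose genotype effect differed between bone and MC past the threshold. The 4 genes were chosen by their call in bone, and this difference holds the same bone contrast. Its adjusted p is therefore not independent of the choice, and nothing is read from it. The log2 fold change of Lyz2 was -1.46 in bone and 1.88 in MC, a difference of -3.34 (SE 0.57, limma adjusted p = 0.0332), in a comparison where 0.0806% of the 14881 genes passed. The difference was -2.87 with both edgeR and DESeq2, with adjusted p-values of 0.165 and 0.0179. With 1 bone or MC library left out at a time, chosen after seeing the data, it ranged from -3.81 to -2.90 and stayed past the threshold in 3 of 12 cases. The highest adjusted p was 0.133 with limma, without WT MC replicate 1. Lyz2 had 9.54 to 21.8 normalized counts in S252W and 41.8 to 48.6 in WT bone, and 19.4 to 22.2 in S252W and 3.78 to 14.7 in WT MC, without overlap in either tissue. Over all genes the groups did not overlap in 20.2% in bone and 12.5% in MC, and Lyz2 was chosen by its call in bone. Of the 8 macrophage markers, 3 had positive fold changes in bone (median -1.40) and 8 in MC (median 1.60), while their sum was higher in S252W in both tissues.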

How the results depend on the processing

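In 319 of 328 repeats of a member's tested result, which leave out the difference between genotypes in bone, direction and side of the threshold were as reported. Reversed without passing were Srgap3 in MC without WT replicate 1 (-0.17, all left-out libraries -0.17 to 0.50) and Megf10 in condylar cartilage without WT replicate 1 (-0.15, range -0.15 to 1.16). Lost calls were Srgap3 bone against MC with edgeR (-0.63) and with any of 5 libraries left out (all left-out libraries -0.77 to -0.44, adjusted p up to 0.104 with limma) and Megf10 between cartilages with 12 libraries (2.00). The causes were not tested. The FPKM filter, on total counts without TMM factors, left no value for Ptpn13 (above 1 in 7 of 18 libraries, 9 with TMM factors) and Megf10.

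Counts of genes moved more. In bone, 21 genes became 10 with the FPKM filter, 53 without a filter, 4 with edgeR, 756 with sample quality weights, 235 with 1 weight per tissue, 91 with bone alone, 32 with the replicate block, 559 with that block on bone alone, and 1 to 142 with libraries left out (142 without WT bone replicate 3). The 4 list genes became 1, 11, 0, 37, 24, 13, 4 and 37 in the same order of settings, 1 with DESeq2, and 0 to 11. In MC, 0 became 45 without a filter, 61 with edgeR, 443 with DESeq2, 1 with the replicate block and 0 to 62. In condylar cartilage it became 3 with DESeq2, 2 with quality weights and 5 with the block on its own libraries, and between the cartilages 119 with DESeq2. Bone against MC called 7160 genes, 12952 without a filter and 4458 in WT embryos.

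Deviations of same-numbered libraries of the genotypes correlated at -0.093 to 0.191 in bone, -0.140 to -0.040 in MC and 0.053 to 0.259 in condylar cartilage. In no tissue was every pair above 0.1, so the numbers are not taken as pairs. With the replicate block no member's call changed. The weight per tissue and the block on fewer libraries were chosen after seeing the data. At 0 to 3 counts, Megf10 allows no comparison of genotypes in MC.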
